A study of Mus musculus with 9 samples.

Results

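Transcripts of 10 enzymes of threonine breakdown, serine synthesis and folate one-carbon metabolism were followed in embryoid bodies (EBs) of the mouse, in which embryonic stem cells (ESCs) cluster and start to differentiate. The enzymes were taken by name for their place in these pathways, but with earlier results of these data known. They were *Tdh*, *Gcat*, *Phgdh*, *Psat1*, *Psph*, *Shmt1*, *Shmt2*, *Mthfd1*, *Mthfd1l* and *Mthfd2*, 10 of the 55471 genes counted. The study compared 3 groups of 3 RNA-seq libraries, all from EBs of the E-14 ESC line that were formed in hanging drops and then differentiated for 3 days in medium with non-essential amino acids. WT EBs were unedited and given no lipid. KO EBs were Tnfaip2-/- and came from 1 CRISPR/Cas9-edited line with a frameshift in the second exon, so a property of that line and the loss of *Tnfaip2* cannot be told apart. KO_PAPC EBs were of the same Tnfaip2-/- line and received PA/PC, that is palmitic acid, a fatty acid, with palmitoyl-L-carnitine, its form that is carried into mitochondria, at 8 μM each. The study's text gives a vehicle control for the untreated KO EBs, which the labels do not name, and neither source used here gives one for the WT libraries. By the study's methods, untreated EBs formed in ESC medium, whereas treated EBs formed in the differentiation medium with the lipids already added, while the labels describe 1 way of forming all EBs. The lipids and a different medium during EB formation therefore cannot be told apart, and a change "with PA/PC" means here the difference of KO_PAPC from KO EBs. The study describes the 3 libraries of a group as biological replicates, for the PA/PC experiment as separate pools of EBs.

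Mouse ESCs are known for a high activity of threonine dehydrogenase. TDH oxidises threonine in the mitochondrion, and GCAT, which acts next, splits the product into glycine and acetyl-CoA. Serine is made from a glycolytic intermediate by PHGDH, PSAT1 and PSPH in that order. The serine hydroxymethyltransferases (SHMT1 in the cytosol, SHMT2 in the mitochondrion) turn serine into glycine and pass a carbon to tetrahydrofolate. MTHFD2 and MTHFD1L carry that carbon on to formate in the mitochondrion, and MTHFD1 takes formate up into the cytosolic folate pool that feeds purine and thymidylate synthesis.

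Library totals were 27362913 to 28914312 counts, and the lowest count of any of the 10 enzymes in any library was 550. Levels are given as CPM, counts scaled to a common library total, as mean ± SD over 3 libraries. Mitochondrial genes took 1.85 to 1.87% of counts in WT, 1.96 to 1.98% in KO and 1.26 to 1.34% in KO_PAPC libraries, and their part in the results was not tested. Fold changes are edgeR log2 values ± SE after TMM scaling, with p-values adjusted over all genes tested, and the threshold for a call was an adjusted p of 0.05. The 2 scales differ for KO_PAPC: with library totals in place of TMM, the median log2 change of all genes moved from -0.017 to -0.18 both against KO and against WT. The 3 comparisons share libraries, so their values for a gene are given side by side and not as support for each other. Counts of the targeted gene *Tnfaip2* were 6 to 16 in WT, 5 to 8 in KO and 14 to 25 in KO_PAPC libraries, too low to check the labels, and a frameshift need not lower the transcript.

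All 10 enzymes passed the filter on low counts and were called in each comparison, as were most genes. In KO versus WT EBs, 3 enzymes rose and 7 fell, where 73.8% of 17355 genes were called, 36.8% as higher and 37.1% as lower. In KO_PAPC versus KO EBs, 6 rose and 4 fell, against 81.8% of 17167 genes called, with 39.6% higher and 42.2% lower. In KO_PAPC versus WT EBs, 5 rose and 5 fell, against 70.6% of 16655 genes, with 34.2% higher and 36.4% lower. The median absolute log2 change of the enzymes in KO versus WT was 0.84, beside 0.36 over all genes. It was 0.55 beside 0.54 in KO_PAPC versus KO, and 0.51 beside 0.33 in KO_PAPC versus WT. The median signed change was -0.70 in KO versus WT, beside -0.0059 for all genes, then 0.32 in KO_PAPC versus KO and -0.089 in KO_PAPC versus WT. These medians describe a set chosen with earlier results of the data known and are not a test of it. When a change had to exceed 2-fold (edgeR's glmTreat), 1 enzyme was called in KO versus WT (*Tdh*), where 9.14% of genes were. In KO_PAPC versus KO the calls were *Mthfd1l* and *Tdh*, against 20.7% of genes. *Mthfd2* and *Psat1* were the calls in KO_PAPC versus WT, against 8.02%.

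**Figure D1:**
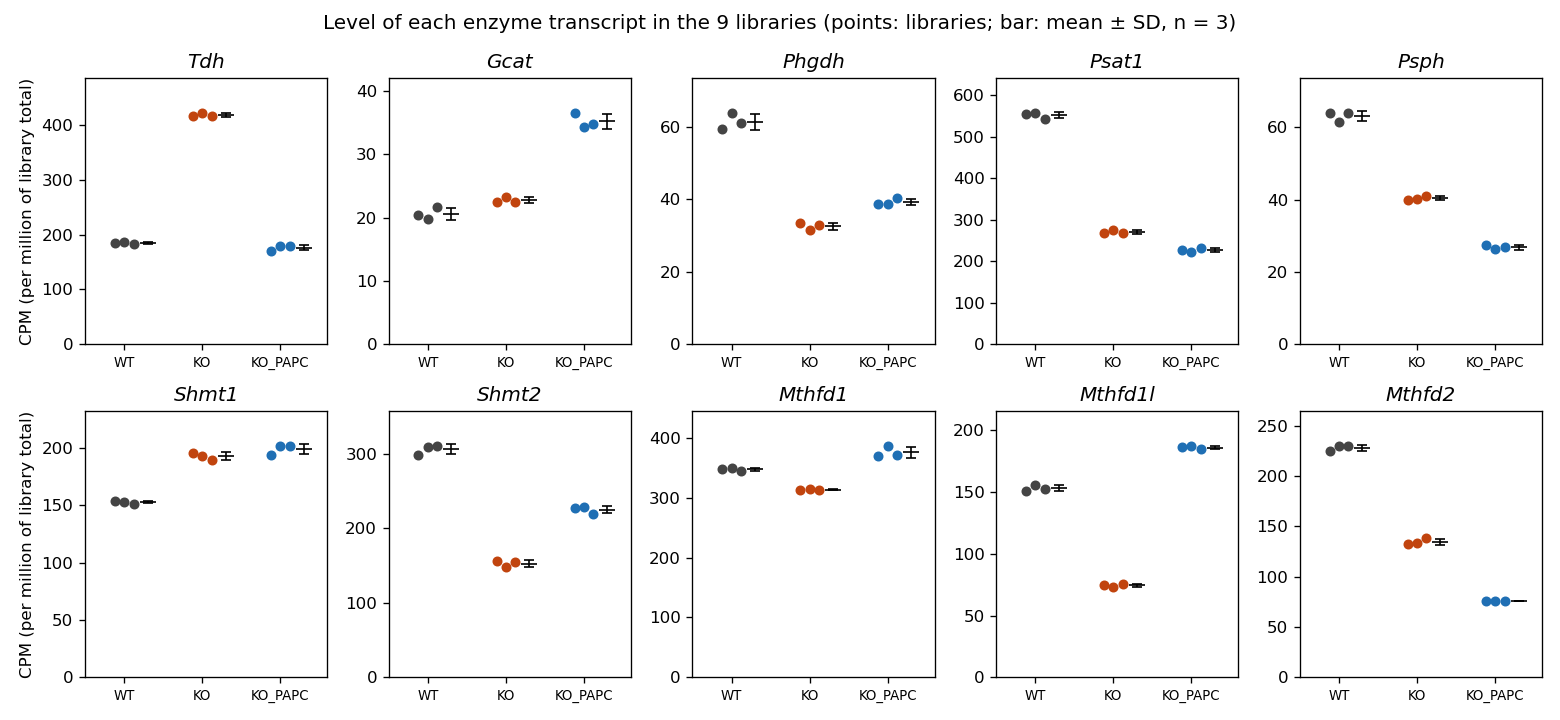
Level of the 10 enzyme transcripts in CPM (y axis from 0, one scale per gene) in the 3 WT, 3 KO and 3 KO_PAPC libraries, each point a library and each bar the mean ± SD (n = 3). *Tdh* is the gene whose KO libraries (416 to 421 CPM) stand more than 2-fold above those of both other groups, while *Mthfd2* and *Psph* step down from WT to KO to KO_PAPC.

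The 10 enzymes summed to 2060 to 2085 CPM in WT, 1650 to 1653 in KO and 1554 to 1580 in KO_PAPC libraries. In CPM the groups did not overlap. CPM uses library totals and not TMM, so the order of KO and KO_PAPC in this sum rests on the scaling. Within that sum the enzymes moved in different patterns. *Psat1*, *Psph* and *Mthfd2* were lower in KO than in WT and lower again in KO_PAPC. *Phgdh*, *Shmt2*, *Mthfd1* and *Mthfd1l* were lower in KO and higher in KO_PAPC than in KO. *Tdh* was highest in KO, and *Gcat* and *Shmt1* were higher in KO than in WT and higher again in KO_PAPC by the TMM-scaled test.

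**Figure D2:**
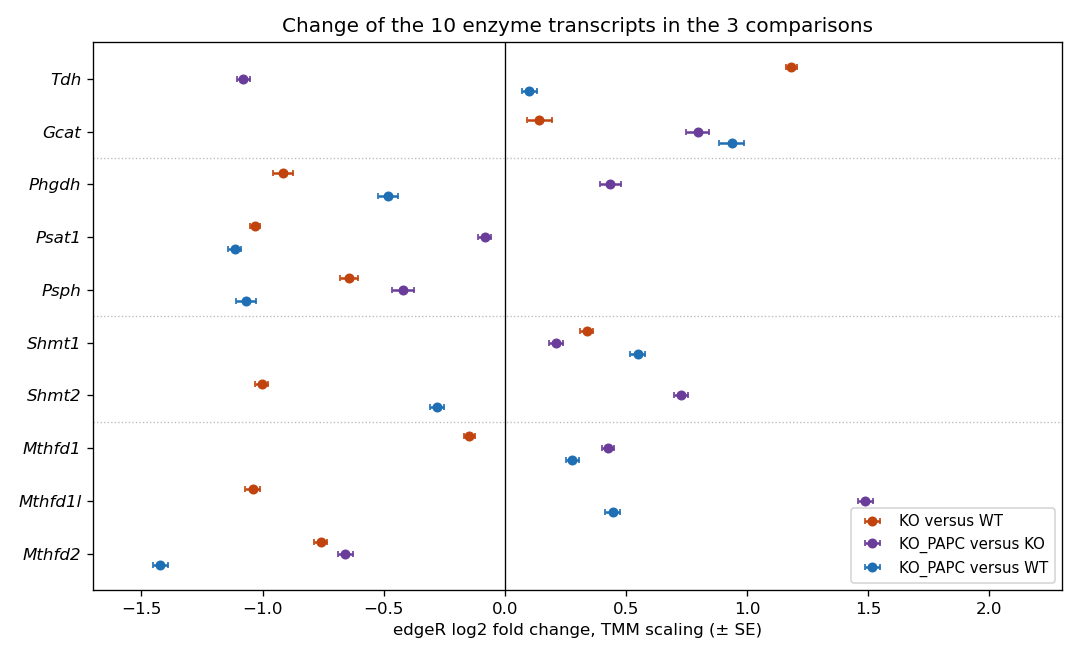
edgeR log2 fold change (x axis, TMM scaling, bars ± SE) of each enzyme transcript in the 3 comparisons, with dotted lines between threonine breakdown, serine synthesis, the serine hydroxymethyltransferases and the tetrahydrofolate enzymes. *Tdh* runs from 1.18 in KO versus WT to -1.08 in KO_PAPC versus KO, and *Mthfd1l* runs the opposite way from -1.04 to 1.49.

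*Tdh* (ENSMUSG00000021953, GRCm38 chromosome 14, 63492347 to 63509092, minus strand) encodes threonine dehydrogenase. Its level was 184, 186 and 182 CPM in the WT libraries, 416, 421 and 416 in the KO libraries, and 171, 180.0 and 178 in the KO_PAPC libraries. KO libraries lay far above all others, and the lowest WT library lay above the highest KO_PAPC library. *Tdh* rose 2.27-fold in KO versus WT EBs (log2 1.18 ± 0.02, edgeR adjusted p = 2.91e-30), a rise that 7.05% of genes matched or exceeded. It fell 2.11-fold with PA/PC (log2 -1.08 ± 0.03, edgeR adjusted p = 2.18e-29). Against WT, *Tdh* in KO_PAPC EBs was called higher at log2 0.10 ± 0.03 (edgeR adjusted p = 0.00474), but with library totals the value was -0.064 (adjusted p = 0.0604), so the sign rests on the scaling. Of the 51-base words of its exons, 9.90% also occur in *Gm13929*, and such reads were not counted.

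*Tdh* is known for high levels in pluripotent cells, and EBs are mixtures, so the marker lists are given beside it. In bulk EBs, fewer cells of a type and less RNA per cell cannot be told apart. The summed level of 8 pluripotency markers (*Pou5f1*, *Sox2*, *Nanog*, *Zfp42*, *Esrrb*, *Klf4*, *Tfcp2l1*, *Dppa5a*) was 2933 to 2949 CPM in WT libraries, 4655 to 4671 in KO and 2645 to 2706 in KO_PAPC libraries. In KO versus WT EBs, 7 of the 8 were called higher, and *Pou5f1* was not called (log2 0.025 ± 0.022). In KO_PAPC versus WT EBs, 3 of the 8 were called higher after TMM scaling (*Pou5f1*, *Sox2* and *Dppa5a*) and 5 lower. The sums use library totals, so the order of the WT and KO_PAPC sums rests on the scaling. With PA/PC, 7 of the 8 fell and *Pou5f1* rose (log2 0.44 ± 0.02). Summed neuroectoderm markers (4 genes) ran the other way, at 130.0 to 135 CPM in WT libraries, 37.6 to 41.2 in KO and 211 to 214 in KO_PAPC libraries, and post-implantation epiblast markers (4 genes) were at 492 to 499, 377 to 391 and 1025 to 1060 CPM. In each of these lists all 4 genes fell in KO and all 4 rose with PA/PC. Primitive and visceral endoderm markers (7 genes) were at 219 to 227 CPM in WT libraries, 154 to 159 in KO and 22.4 to 23.5 in KO_PAPC libraries, and 5 of the 7 fell in KO and 7 of 7 with PA/PC. Summed mesoderm markers (5 genes, 4 of them tested) were at 37.1 to 41.0 CPM in WT libraries, 33.4 to 34.6 in KO and 44.7 to 46.4 in KO_PAPC libraries, most of it *Eomes*, while single genes moved far in opposite directions. Of the 4, 2 rose and 2 fell in KO, and 2 rose and 2 fell with PA/PC. *T* averaged 1.91, 0.29 and 15.5 CPM in WT, KO and KO_PAPC EBs, so that it fell in KO and rose with PA/PC (log2 -2.69 ± 0.26 and 5.87 ± 0.15). *Hand1*, at 0.78, 4.53 and 0.22 CPM, and *Kdr*, at 1.94, 6.42 and 0.52 CPM, rose in KO and fell with PA/PC. Feeder fibroblast (6 genes) and trophoblast (5 genes) markers reached at most 17.9 and 12.5 CPM. No marker was at 0 in every library. The part of these markers in the enzyme changes was not tested.

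*Gcat* (ENSMUSG00000006378, chromosome 15, 79030874 to 79038353, plus strand) encodes glycine C-acetyltransferase, which follows TDH. Its level was 20.5, 19.8 and 21.6 CPM in WT libraries, 22.5, 23.3 and 22.4 in KO, and 36.5, 34.2 and 34.8 in KO_PAPC libraries. The KO_PAPC libraries stood clear of the rest, while the nearest WT and KO libraries were at 21.6 and 22.4 CPM. *Gcat* rose with PA/PC by 1.74-fold (log2 0.80 ± 0.05, edgeR adjusted p = 2.70e-17) and was 1.91-fold higher in KO_PAPC than in WT EBs (log2 0.94 ± 0.05). The KO versus WT value was log2 0.14 ± 0.05 (edgeR adjusted p = 0.0159), and that call was lost in DESeq2 (adjusted p = 0.119), with no filter on low counts (0.0544), without KO replicate 2 (0.0628) and without WT replicate 2 (0.0917). A read-through locus with the same symbol covers 47.5% of the exon bases of *Gcat*, and reads there were not counted, so its level is understated.

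Because the enzymes of a pathway can change unequally, counts were also compared as ratios within each library, which do not depend on scaling. The *Tdh* to *Gcat* ratio of counts was 8.94 ± 0.48 in WT, 18.4 ± 0.25 in KO and 5.01 ± 0.30 in KO_PAPC libraries (SD, n = 3). The log2 difference was 1.04 ± 0.05 (SE) for KO versus WT, -1.87 ± 0.05 for KO_PAPC versus KO and -0.84 ± 0.07 for KO_PAPC versus WT. In each of these comparisons every library of a group lay outside the range of the other group. The two-sided exact permutation test gave p = 0.1 for each, the smallest value that 3 against 3 libraries allow, and 0.1 after adjustment over the 9 ratio comparisons.

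The 3 serine synthesis enzymes were all lower in KO than in WT EBs. *Phgdh* (ENSMUSG00000053398, chromosome 3, 98313170 to 98339990, minus strand) encodes the dehydrogenase that opens the pathway. Its level was 59.2, 63.7 and 61.1 CPM in WT libraries, 33.3, 31.4 and 32.9 in KO, and 38.7, 38.8 and 40.2 in KO_PAPC libraries. In CPM the 3 groups did not overlap, and KO_PAPC lay between the other groups, nearer to KO. The TMM-scaled changes that follow put KO_PAPC about midway. *Phgdh* fell by 0.91 ± 0.04 on the log2 scale in KO EBs (edgeR adjusted p = 5.02e-20), rose by 0.44 ± 0.04 with PA/PC (3.72e-11) and stayed lower than WT in KO_PAPC at -0.48 ± 0.04 (1.67e-10). Of its 51-base words, 47.3% also occur in pseudogene copies, whose own counts (the largest, *Gm7901*, had 11 to 45) were far below those of *Phgdh* (880 to 1773). Reads shared between them were not counted.

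*Psat1* (ENSMUSG00000024640, chromosome 19, 15904678 to 15947337, minus strand) encodes phosphoserine aminotransferase, the middle step, and was the highest of the 10 in WT EBs. Its level was 556, 557 and 544 CPM in WT libraries, 268, 275 and 268 in KO, and 227, 222 and 233 in KO_PAPC libraries. All 3 groups were apart, with WT at about 2-fold the level of the others. *Psat1* fell 2.04-fold in KO versus WT (log2 -1.03 ± 0.02, edgeR adjusted p = 5.14e-29) and was 2.17-fold lower in KO_PAPC than in WT (log2 -1.12 ± 0.03, 4.78e-21). With PA/PC the fall from KO was small, log2 -0.083 ± 0.027 (edgeR adjusted p = 0.00560). That call was lost without a filter on low counts (adjusted p = 0.0671) and without KO_PAPC replicate 2 (0.0777), and with library totals the fall was larger, at -0.25.

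*Psph* (ENSMUSG00000029446, chromosome 5, 129765558 to 129787449, minus strand) encodes phosphoserine phosphatase, which releases serine. Its level was 63.9, 61.5 and 63.8 CPM in WT libraries, 39.8, 40.3 and 40.9 in KO, and 27.5, 26.2 and 26.8 in KO_PAPC libraries. The groups stepped down without overlap. *Psph* fell by 0.64 ± 0.04 on the log2 scale in KO EBs (edgeR adjusted p = 6.12e-17) and by a further 0.42 ± 0.05 with PA/PC (1.34e-10), which left KO_PAPC 2.10-fold below WT (log2 -1.07 ± 0.04). Its exons overlap those of *Cct6a* on the other strand over 10.4% of their bases, and reads there were not counted.

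The mitochondrial and cytosolic serine hydroxymethyltransferases moved apart in KO EBs. *Shmt2* (ENSMUSG00000025403, chromosome 10, 127517123 to 127522444, minus strand) was at 299, 309 and 310.4 CPM in WT libraries, 156, 148 and 155 in KO, and 227, 228 and 219 in KO_PAPC libraries. KO_PAPC lay between the other groups and overlapped neither. *Shmt2* fell 2.00-fold in KO versus WT (log2 -1.003 ± 0.026, edgeR adjusted p = 1.11e-26) and rose 1.65-fold with PA/PC (log2 0.73 ± 0.03, 5.32e-23). In KO_PAPC it remained below WT at log2 -0.28 ± 0.03 (3.93e-09).

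*Shmt1* (ENSMUSG00000020534, chromosome 11, 60788104 to 60811718, minus strand) was at 153, 153 and 151 CPM in WT libraries, 196, 193 and 189 in KO, and 194, 201 and 202 in KO_PAPC libraries. WT libraries were below all others, and the KO and KO_PAPC libraries overlapped. *Shmt1* rose in KO versus WT by log2 0.34 ± 0.03 (edgeR adjusted p = 1.12e-13) and was higher in KO_PAPC than in WT by 0.55 ± 0.03 (2.52e-14). The rise with PA/PC was log2 0.21 ± 0.03 (1.30e-08) after TMM scaling, but with library totals it was 0.045 (adjusted p = 0.129), so that call rests on the scaling.

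The *Shmt2* to *Shmt1* ratio of counts was 2.01 ± 0.05 in WT, 0.792 ± 0.027 in KO and 1.13 ± 0.04 in KO_PAPC libraries (SD, n = 3). *Shmt2* counts exceeded *Shmt1* counts in every WT and KO_PAPC library and were below them in every KO library. On the log2 scale the ratio differed by -1.34 ± 0.04 (SE) for KO versus WT, 0.51 ± 0.04 for KO_PAPC versus KO and -0.83 ± 0.04 for KO_PAPC versus WT. Each had p = 0.1 in the exact permutation test, again the smallest value possible.

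Of the tetrahydrofolate enzymes, the mitochondrial pair changed most and in opposite directions with PA/PC. *Mthfd2* (ENSMUSG00000005667, chromosome 6, 83305691 to 83325908, minus strand) encodes the mitochondrial dehydrogenase and cyclohydrolase, known for high levels in embryonic and dividing cells. Its level was 225, 229.8 and 229.9 CPM in WT libraries, 133, 133 and 138 in KO, and 75.8, 75.9 and 76.2 in KO_PAPC libraries. The groups stepped down without overlap, and the KO_PAPC libraries were nearly alike. *Mthfd2* fell 1.69-fold in KO versus WT (log2 -0.76 ± 0.03, edgeR adjusted p = 2.74e-23) and 1.58-fold with PA/PC (log2 -0.66 ± 0.03, 1.64e-20). KO_PAPC was 2.68-fold below WT (log2 -1.42 ± 0.03, 2.38e-22), a fall that 7.22% of genes matched or exceeded.

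*Mthfd1l* (ENSMUSG00000040675, chromosome 10, 3973118 to 4167081, plus strand) encodes the mitochondrial synthetase that yields formate. It was at 151, 156 and 153 CPM in WT libraries, 74.5, 72.9 and 75.8 in KO, and 186, 187 and 185 in KO_PAPC libraries. KO libraries were below all others and KO_PAPC libraries above all others. *Mthfd1l* fell 2.06-fold in KO versus WT (log2 -1.04 ± 0.03, edgeR adjusted p = 1.16e-25). With PA/PC it rose 2.81-fold (log2 1.49 ± 0.03, 4.18e-32), a rise that 4.08% of genes matched or exceeded, and it was 1.36-fold above WT (log2 0.44 ± 0.03, 1.08e-12).

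*Mthfd1* (ENSMUSG00000021048, chromosome 12, 76255298 to 76319803, plus strand) encodes the cytosolic enzyme with synthetase, cyclohydrolase and dehydrogenase activity. Its level was 348, 349 and 345 CPM in WT libraries, 313, 315 and 312 in KO, and 369.7, 386 and 371 in KO_PAPC libraries. The groups were apart but close. *Mthfd1* fell by 0.15 ± 0.02 on the log2 scale in KO EBs (edgeR adjusted p = 4.48e-07), a smaller change than that of 76.8% of genes, rose by 0.43 ± 0.03 with PA/PC (1.27e-17) and was 0.28 ± 0.03 above WT in KO_PAPC (1.84e-09).

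The *Mthfd1l* to *Mthfd1* ratio of counts was 0.441 ± 0.007 in WT, 0.237 ± 0.006 in KO and 0.495 ± 0.010 in KO_PAPC libraries (SD, n = 3). Its log2 difference was -0.89 ± 0.02 (SE) for KO versus WT, 1.06 ± 0.03 for KO_PAPC versus KO and 0.17 ± 0.02 for KO_PAPC versus WT, each with no overlap of libraries and p = 0.1 in the exact permutation test. The ratio of *Mthfd1l* to *Mthfd2*, chosen after their values were seen and not tested, was 0.672 in WT, 0.553 in KO and 2.45 in KO_PAPC libraries. *Mthfd2* counts exceeded *Mthfd1l* counts in every WT and KO library and were below them in every KO_PAPC library.

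**Figure D3:**
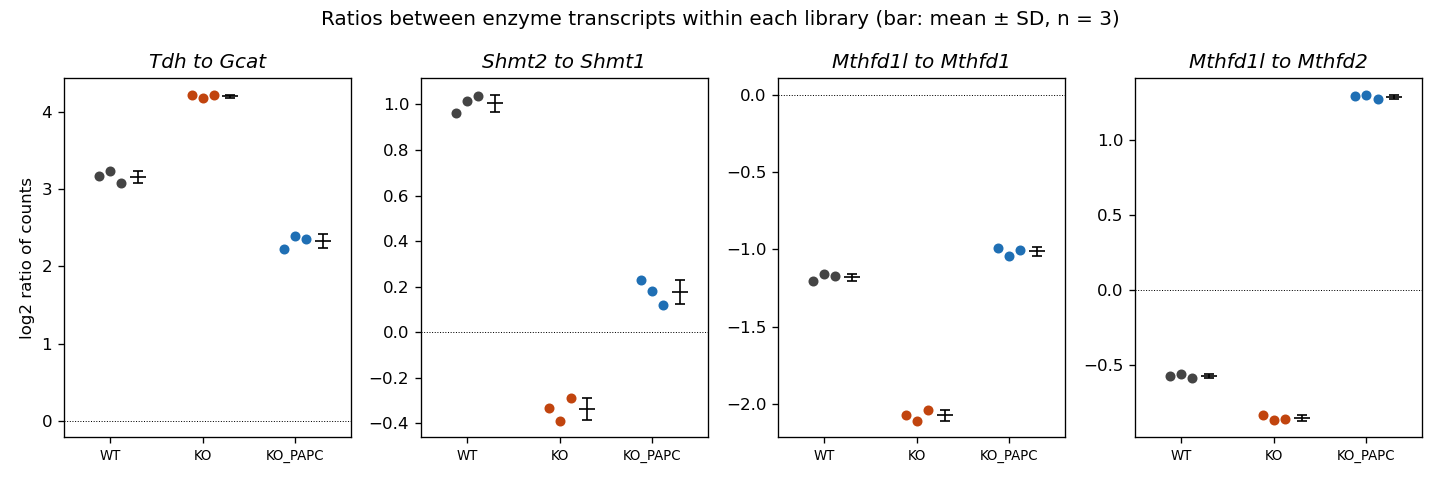
Log2 ratio of counts (y axis, own scale in each panel, dotted line at equal counts) for 4 pairs of enzyme transcripts, each point a library and each bar the mean ± SD (n = 3). KO libraries are highest for *Tdh* to *Gcat* and lowest for *Shmt2* to *Shmt1* and *Mthfd1l* to *Mthfd1*, and the KO_PAPC libraries alone lie above 0 for *Mthfd1l* to *Mthfd2*.

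To compare levels between genes, counts were also divided by exon length (RPKM, CPM per kilobase of exon). In WT EBs the order by RPKM was *Psat1* (129.8), *Shmt2* (98.4), *Mthfd1* (78.2), *Tdh* (70.4), *Mthfd2* (65.4), *Shmt1* (39.3), *Mthfd1l* (34.6), *Phgdh* (24.7), *Psph* (14.6) and *Gcat* (8.65). Neighbours in this order did not overlap between libraries. In KO EBs *Tdh* came to the top at 159.8 RPKM, more than 2-fold the next, *Mthfd1* at 70.6. In KO_PAPC EBs *Mthfd1* was highest at 84.6 and *Shmt2* second at 72.3 RPKM. Over the exon length that is not shared with other genes the order shifted. In WT EBs *Phgdh*, at 46.8 RPKM, then stood above *Shmt1* at 40.7, *Tdh* and *Mthfd1* were both at 78.2, and *Gcat* (16.1) was level with *Psph* (16.0). In KO_PAPC EBs *Tdh* (74.8) then came out near *Shmt2* (73.2), so the second place is not settled.

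The promoters of enzymes that moved together or apart were read for short motifs. Entries were found in RefSeq (GRCm38.p6) for 9 of the 10 enzymes, all but *Tdh*. The 250 bases before the start site were searched on both strands, leaving out annotated exon bases, which left 54 bases for *Psph*, 201 for *Shmt1* and 229 for *Phgdh*. The motifs were CCAAT (the CCAAT box), CACGTG (the E-box that MYC proteins bind), TGACGTCA (the cyclic AMP response element) and TGATGNAA (the core of the composite C/EBP-ATF element that ATF4 binds), and none contains another. *Psat1* and *Mthfd2*, lower in KO and lower again with PA/PC, are shown with *Shmt2* and *Mthfd1l*, which fell in KO and rose with PA/PC. Each sequence runs 5′ to 3′ on the strand of the gene, and capitals mark CCAAT or its reverse complement ATTGG. The windows are chr19:15925060-15925309 on the minus strand for *Psat1*, chr6:83317607-83317854 on the minus strand for *Mthfd2*, chr10:127522445-127522694 on the minus strand for *Shmt2* and chr10:3972825-3973074 on the plus strand for *Mthfd1l*.
Psat1: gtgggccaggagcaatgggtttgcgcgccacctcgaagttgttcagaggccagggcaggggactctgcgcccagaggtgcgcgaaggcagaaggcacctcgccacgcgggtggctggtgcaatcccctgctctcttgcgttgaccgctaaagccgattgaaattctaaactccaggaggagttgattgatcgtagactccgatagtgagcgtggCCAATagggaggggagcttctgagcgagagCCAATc
Mthfd2: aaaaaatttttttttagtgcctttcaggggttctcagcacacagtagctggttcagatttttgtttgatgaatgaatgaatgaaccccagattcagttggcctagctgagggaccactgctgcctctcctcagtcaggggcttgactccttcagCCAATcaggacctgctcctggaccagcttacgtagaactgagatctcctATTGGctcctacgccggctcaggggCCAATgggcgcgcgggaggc
Shmt2: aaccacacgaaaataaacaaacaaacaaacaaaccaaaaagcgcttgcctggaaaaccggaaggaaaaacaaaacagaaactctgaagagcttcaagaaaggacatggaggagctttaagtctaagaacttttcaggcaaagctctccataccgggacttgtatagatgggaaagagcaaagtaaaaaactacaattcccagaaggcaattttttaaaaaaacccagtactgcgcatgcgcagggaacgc
Mthfd1l: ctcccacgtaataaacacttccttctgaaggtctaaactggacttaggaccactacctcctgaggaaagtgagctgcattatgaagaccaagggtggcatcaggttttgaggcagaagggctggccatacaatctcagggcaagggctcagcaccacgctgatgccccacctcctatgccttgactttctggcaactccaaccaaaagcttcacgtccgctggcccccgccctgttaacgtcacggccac

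CCAAT occurred 2 times in the *Psat1* window shown, at -36 and -6 from the start site, and 3 times in that of *Mthfd2*, at -96, -47 and -22. It occurred 2 times each in *Psph* (-78 and -48) and *Phgdh* (-193 and -23), and 1 time each in *Shmt1* (-47) and *Mthfd1* (-69). No CCAAT was in the windows of *Shmt2*, *Mthfd1l* and *Gcat*. *Phgdh* and *Mthfd1* held CCAAT, although they too fell in KO and rose with PA/PC. The windows shown therefore do not stand for all enzymes of a pattern, and CCAAT did not separate the patterns. Of 32851 mouse promoters with windows of up to 250 bases, 33.8% held CCAAT, 10.1% held it 2 or more times and 2.79% held it 3 or more times. A second start site of *Psat1* (chr19:15924632-15924872, minus strand, 241 bases) held no CCAAT. The other 3 motifs were in none of the 10 windows, beside 6.02% of all promoters for CACGTG, 3.45% for TGATGNAA and 1.55% for TGACGTCA. For *Psat1*, *Mthfd2* and *Shmt1*, the gene model reaches further upstream than the window searched, to positions 15947337, 83325908 and 60811718. A match is a run of letters and no measured binding.

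The neighbouring pathway was described with 52 further genes in 7 lists by function. In KO versus WT EBs 48 were tested, 13 rose and 25 fell, so 79.2% were called beside 73.8% of all genes. In KO_PAPC versus KO EBs 47 were tested, 18 rose and 21 fell (83.0% beside 81.8%), and in KO_PAPC versus WT EBs 46 were tested, 19 rose and 21 fell (87.0% beside 70.6%). Median log2 changes were -0.10, 0.018 and 0.00023 in the same order. The median absolute changes were 0.37, 0.67 and 0.52, beside 0.36, 0.54 and 0.33 over all genes. With a change above 2-fold required, 1 rose and 5 fell in KO versus WT, 2 rose and 7 fell in KO_PAPC versus KO, and 0 rose and 9 fell in KO_PAPC versus WT.

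**Figure D4:**
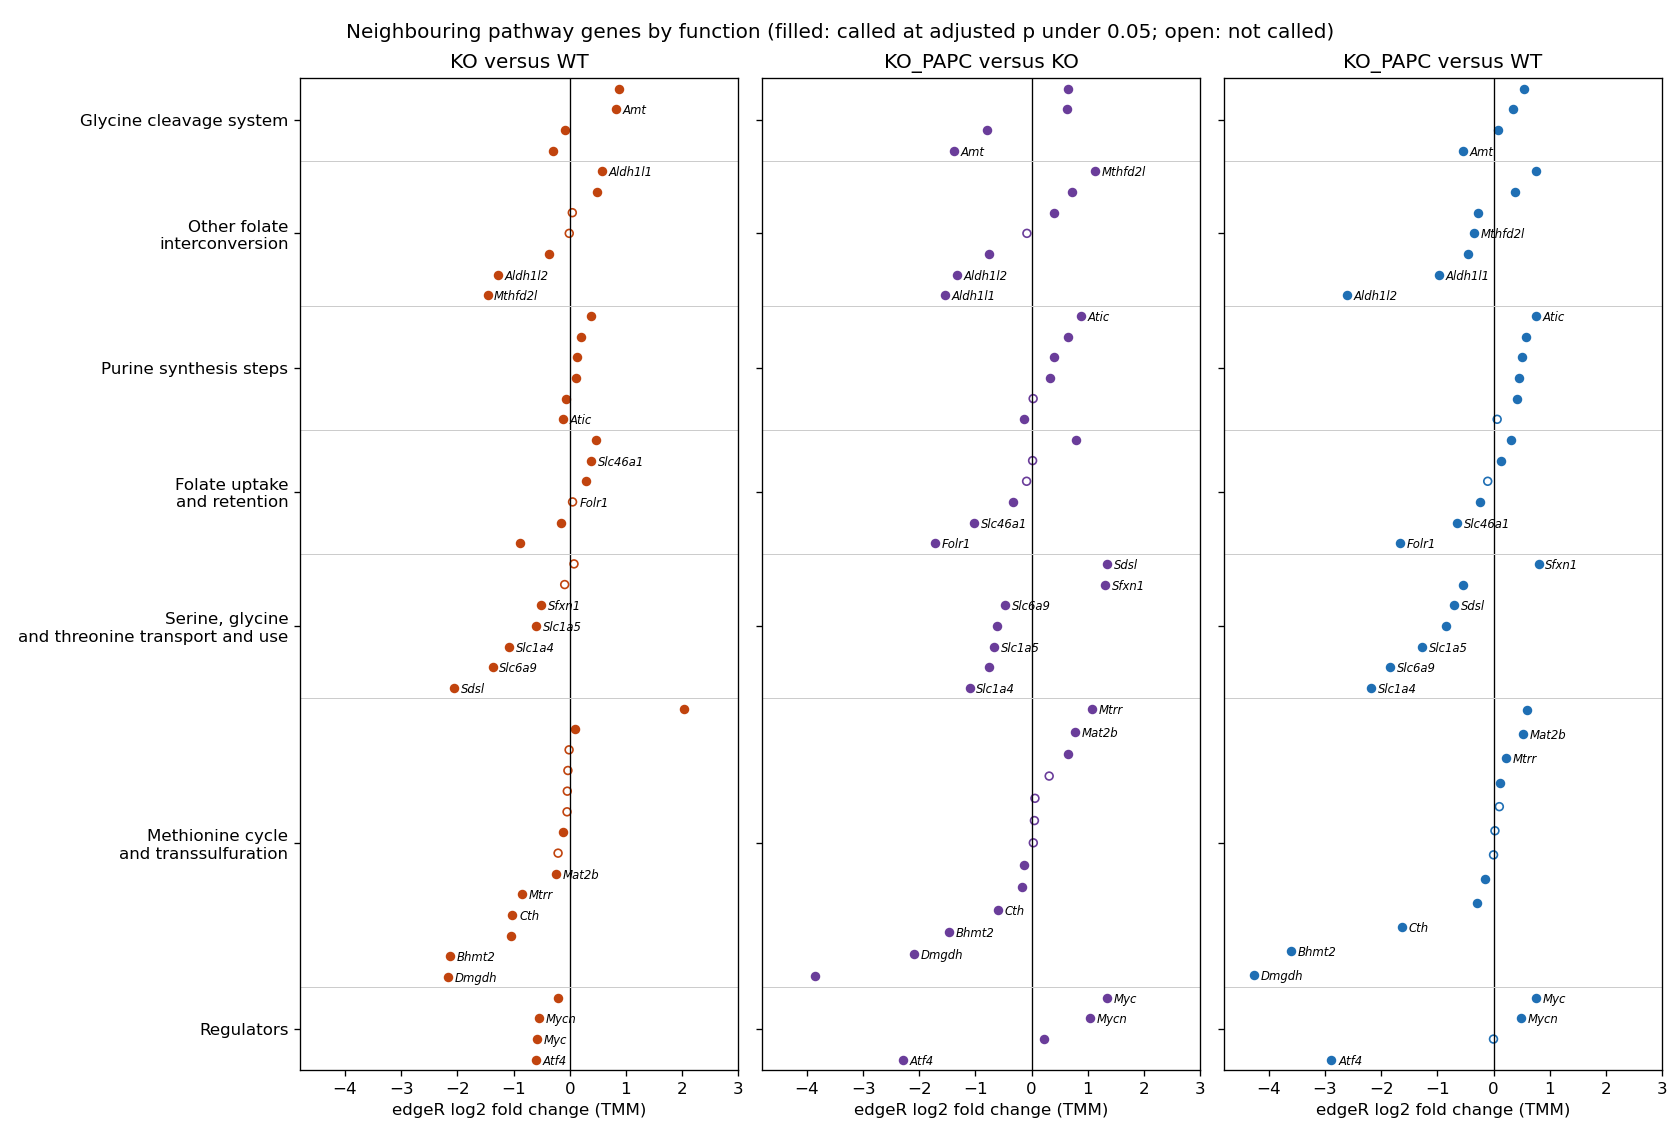
edgeR log2 fold change (x axis, TMM scaling) of each tested neighbouring gene in the 3 comparisons, sorted within 7 functional lists, with filled points called at an adjusted p under 0.05 and open points not called. Named genes are labelled, among them *Atf4* at -0.60, -2.28 and -2.88 from left to right.

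Of 7 tested genes for the transport and use of serine, glycine and threonine, 5 fell and 2 were not called in KO versus WT EBs, and 2 rose and 5 fell with PA/PC. *Slc1a4*, a neutral amino acid carrier for serine and alanine, averaged 74.5 ± 3.45 CPM in WT EBs, 35.2 ± 1.33 in KO EBs and 14.6 ± 0.44 with PA/PC. It fell in KO versus WT (log2 -1.08 ± 0.04) and again with PA/PC (log2 -1.10 ± 0.05, edgeR adjusted p = 3.41e-20). *Slc1a5*, the main glutamine carrier, stepped down in the same order from 144 ± 3.44 through 95.2 ± 4.31 to 53.4 ± 1.43 CPM (log2 -0.60 ± 0.03 and -0.67 ± 0.04). *Sfxn1*, which carries serine into the mitochondrion, fell in KO (log2 -0.51 ± 0.03) and rose with PA/PC to above WT, at 114 ± 3.05, 79.9 ± 1.92 and 177 ± 6.08 CPM in WT, KO and KO_PAPC (log2 1.31 ± 0.03 for KO_PAPC versus KO). *Sdsl*, related to serine dehydratase, had 13 to 98 counts per library and fell in KO (log2 -2.05 ± 0.19). The glycine carrier *Slc6a9* fell in both steps (log2 -1.37 ± 0.10 and -0.47 ± 0.13), and its exons overlap other genes over 30.3% of their bases.

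The glycine cleavage system breaks glycine down in the mitochondrion and also hands a carbon to tetrahydrofolate. Of its 4 genes, 2 rose and 2 fell in KO versus WT EBs. *Amt*, its aminomethyltransferase, averaged 107 ± 1.77, 189.8 ± 4.80 and 65.2 ± 1.25 CPM in WT, KO and KO_PAPC, a rise in KO (log2 0.83 ± 0.03) and a larger fall with PA/PC (log2 -1.38 ± 0.03, edgeR adjusted p = 2.47e-30). *Gldc*, its glycine decarboxylase, was outside the naming rule and chosen after its values were seen. It was at 145 ± 2.53, 265 ± 6.79 and 136 ± 3.63 CPM in WT, KO and KO_PAPC, so that KO stood far above both other groups, as for *Tdh*. The other 2 genes ran the opposite way. *Gcsh* fell in KO and rose with PA/PC (log2 -0.080 ± 0.027 and 0.63 ± 0.03), as did *Dld* (log2 -0.30 ± 0.03 and 0.64 ± 0.03).

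Other folate enzymes split by step. *Mthfd2l*, a paralog of *Mthfd2*, averaged 9.97 ± 0.74, 3.61 ± 0.36 and 7.01 ± 0.21 CPM in WT, KO and KO_PAPC, and fell (log2 -1.46 ± 0.10) and rose (log2 1.12 ± 0.10), where *Mthfd2* fell in both steps. *Aldh1l1*, the cytosolic formyltetrahydrofolate dehydrogenase, rose in KO (log2 0.57 ± 0.06) and fell with PA/PC (log2 -1.55 ± 0.08). Its mitochondrial counterpart *Aldh1l2*, at 13 to 134 counts per library, fell in both steps (log2 -1.28 ± 0.14 and -1.32 ± 0.22). Both overlap other genes, over 13.4% and 14.1% of their exon bases.

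Genes of purine synthesis, which consumes formyl groups, showed small changes in KO EBs (median log2 0.12). In KO_PAPC, 4 of 6 genes rose and 1 fell against KO, where 39.6% of all genes rose and 42.2% fell. Against WT 5 rose, beside 34.2% of all genes, and *Pfas* was not called (log2 0.065). *Atic*, which adds a formyl group near the end of the pathway, averaged 181 ± 3.47, 166 ± 2.66 and 272 ± 4.72 CPM in WT, KO and KO_PAPC (log2 0.87 ± 0.03 for KO_PAPC versus KO). Of the 6 tested genes for folate uptake and retention, 3 rose and 2 fell in KO versus WT, 1 rose and 3 fell with PA/PC, and 2 rose and 3 fell in KO_PAPC versus WT. The receptor *Folr1* was at 46.6 ± 0.17, 48.3 ± 1.90 and 13.1 ± 0.12 CPM in WT, KO and KO_PAPC (log2 -1.72 ± 0.05 with PA/PC), and the proton-coupled carrier *Slc46a1* rose in KO (log2 0.38 ± 0.06) and fell with PA/PC (log2 -1.02 ± 0.06). The one that rose with PA/PC was *Slc19a1*, the reduced folate carrier, named after its values were seen, which fell in KO (log2 -0.88 ± 0.06) and rose with PA/PC (log2 0.78 ± 0.06).

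In the methionine cycle and transsulfuration list, 2 of 14 tested genes rose and 7 fell in KO versus WT, 3 of 13 rose and 6 fell in KO_PAPC versus KO, and 4 of 12 rose and 5 fell in KO_PAPC versus WT. *Cth*, which releases cysteine from cystathionine, was at 86.5 ± 1.70, 42.6 ± 0.87 and 25.0 ± 1.29 CPM in WT, KO and KO_PAPC and fell in both steps (log2 -1.02 ± 0.04 and -0.61 ± 0.05). *Mtrr*, which keeps methionine synthase active, fell (log2 -0.85 ± 0.05) and rose (log2 1.08 ± 0.05). Against WT, *Mtrr* in KO_PAPC was called at log2 0.22 ± 0.04, a call lost with library totals (0.057, adjusted p = 0.235). *Mat2b*, the regulatory subunit of the enzyme that makes S-adenosylmethionine, fell by 0.24 ± 0.03 and rose by 0.77 ± 0.03 on the log2 scale. *Bhmt2* (4 to 73 counts per library) and *Dmgdh* (4 to 128) were low and fell in both steps.

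Of the 4 regulators, all fell in KO versus WT EBs. *Atf4*, a transcription factor of the amino acid response known to activate *Phgdh*, *Psat1*, *Psph*, *Shmt2* and *Mthfd2*, had counts of 12998, 12761 and 12627 in WT, 8620, 8508 and 8748 in KO, and 1573, 1546 and 1475 in KO_PAPC libraries. The groups were far apart, at 458 ± 0.77, 303 ± 0.94 and 55.4 ± 2.09 CPM. *Atf4* fell by 0.60 ± 0.02 on the log2 scale in KO EBs (edgeR adjusted p = 1.28e-22) and by 2.28 ± 0.03 with PA/PC (1.83e-37). Set beside it, *Psat1*, *Psph* and *Mthfd2* fell in the same 2 steps, while *Phgdh* and *Shmt2* fell in KO and rose with PA/PC. Much of the control of ATF4 is at translation, which these data do not measure, and its part in the enzyme changes was not tested.

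*Mycn*, a growth regulator of ESCs, was at 162 ± 5.30, 112 ± 1.40 and 204 ± 4.12 CPM in WT, KO and KO_PAPC, and fell (log2 -0.54 ± 0.03) and rose (log2 1.03 ± 0.03). *Myc* was far lower, at 15.3 ± 0.55, 10.2 ± 0.53 and 23.0 ± 0.22 CPM, and fell and rose alike (log2 -0.58 ± 0.07 and 1.34 ± 0.06). This order of group means, KO lowest and KO_PAPC highest, was also that of the enzymes *Mthfd1l* and *Mthfd1*. Among the pathway genes it was that of *Sfxn1*, *Atic*, *Mat2b*, *Mtrr*, *Dld*, *Gcsh* and *Paics*. *Tyms* and *Ahcy* had it too, though neither was called in KO versus WT. For *Mtrr* the WT and KO_PAPC libraries overlapped. These genes were picked by the order itself, and the remaining enzymes and pathway genes had other orders. The share of all genes with this order was not counted, so the list shows no link to *Mycn* or *Myc*, whose part in it was not tested.

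**Figure D5:**
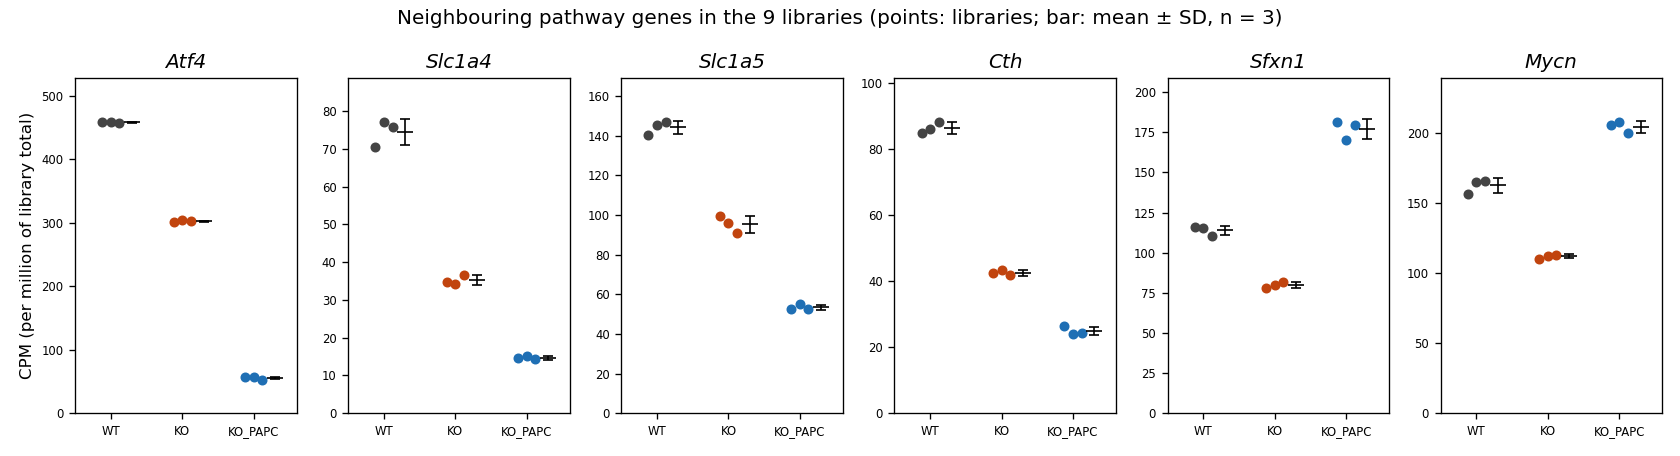
Level in CPM (y axis from 0, one scale per gene) of 6 neighbouring genes in the 3 WT, 3 KO and 3 KO_PAPC libraries, each point a library and each bar the mean ± SD (n = 3). *Atf4*, *Slc1a4*, *Slc1a5* and *Cth* step down from WT to KO to KO_PAPC, while *Sfxn1* and *Mycn* are lowest in KO and highest in KO_PAPC.

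Genes with a pattern most like that of *Tdh* and *Phgdh* were ranked by Pearson's r of log2(CPM + 1) over the 9 libraries, among the 9791 genes that averaged 10 CPM or more. Since the 9 libraries fall into 3 groups, high values are common: 117 genes reached 0.99 with *Tdh* and 21 with *Phgdh*. Among the nearest to *Tdh* were *Adam19* (r = 0.9994), *Csrnp1* (0.9990), *Sod2* and *Ticrr* (both 0.998). *Adam19* averaged 55.6, 159.7 and 52.1 CPM in WT, KO and KO_PAPC. Nearest to *Phgdh* were *Vegfa* (r = 0.997), *Tmem136*, *P4hb*, *9530068E07Rik* (each 0.995) and *Alg2* (0.994). Among the 10 enzymes themselves, *Psph* and *Mthfd2* were most alike (r = 0.997) and *Shmt1* and *Psat1* most opposed (r = -0.989).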

How the data were processed

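RNA-seq counts per Ensembl gene were analysed for 9 libraries in 3 groups of 3, grouped by their titles. The deposited values are raw read counts: per the labels and the study's methods, the authors made unstranded TruSeq libraries, sequenced 51-base single-end reads, mapped them with STAR 2.7.2b to GRCm38 and counted unique reads with featureCounts 1.6.5, leaving out reads that overlap several genes. The methods describe an earlier pipeline for an analysis of WT and KO EBs, but the submitters' processing notes name STAR for all 9 libraries. Of 55471 IDs, 241 had no symbol in GENCODE M21. The number of columns of values left unused was 0.

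Each comparison was fitted on its own 6 libraries with edgeR 4.0.16 in R 4.3.3 (filterByExpr, TMM, quasi-likelihood test, Benjamini-Hochberg over all genes tested), and the fit was tested on simulated data. SE was derived from the F statistic. CPM used library totals and RPKM merged exon lengths. Ratios used a pseudocount of 0.5 counts and exact permutation tests. The spread between libraries of a group beyond sampling noise was 2.09 to 2.65% (square root of edgeR's common dispersion). Every pair of replicates differed by more than sampling noise (chi-square per degree of freedom 1.22 to 3.45). SE and edgeR p-values rest on this spread between libraries and do not cover differences between ESC lines.

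The enzymes, lists and tests were chosen with earlier results of these data known. Of each pathway list, genes called in all 3 comparisons with an absolute log2 change of at least 1 in any were named, and in any case the gene with the smallest adjusted p. For *Tdh* and *Phgdh*, the 5 genes most like them were named. Of the genes these rules name, 2 are not reported here. Alternatives were DESeq2 1.42.0, RLE factors, library totals, no filter, a mean of at least 10 counts, a joint fit, a replicate block, a minimum fold change of 2 and leaving out each library.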

Additional observations from a re-analysis of the deposited data

How the results depend on the processing

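Of 420 alternative values of the 10 enzymes, 387 left the call and its direction as they were, 32 lost the call and 1 turned its sign: *Tdh* in KO_PAPC versus WT, at -0.064 with library totals in place of TMM. Most calls were lost where edgeR's glmTreat required a change above 2-fold. This left 1 enzyme higher and 0 lower for KO versus WT (2 lower at an unadjusted p under 0.05), 1 higher with 1 lower for KO_PAPC versus KO, and 0 higher with 2 lower for KO_PAPC versus WT (0 higher also unadjusted). Of the 52 pathway genes it left 1 higher and 5 lower for KO versus WT, 2 with 7 for KO_PAPC versus KO, and 0 with 9 for KO_PAPC versus WT (0 higher also unadjusted). Of all genes tested it left 9.14, 20.7 and 8.02% in the same order. Without that requirement, edgeR called 5 enzymes and 19 pathway genes higher in the last comparison. The other losses were of *Gcat*, *Psat1* and *Shmt1*, given above. Leaving out single libraries gave 2 to 3 enzymes higher and 7 lower in KO versus WT, 6 and 3 to 4 in KO_PAPC versus KO, and 5 and 5 in KO_PAPC versus WT. The replicate numbers did not pair the libraries (correlations of deviations -0.18 to 0.27). With the number as a block, the enzyme counts were 3 higher and 7 lower, 6 and 4, and 5 and 5, and 12587, 13822 and 12223 of all genes were called, beside 12813, 14047 and 11760 without it. For the ratios, the smallest p with the block is 0.25 over 3 pairs. Counts of the enzymes were 550 or more in every library, whereas *Tnfaip2*, *Bhmt2*, *Dmgdh*, *Sdsl* and *Aldh1l2* rest on under 30 counts in some libraries.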
